A study of Mus musculus with 3 samples.

Results

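The genes described here encode subunits of protein kinase A (PKA) and adenylate cyclases. There are 10 of them among 36809 genes measured in all 3 libraries: the catalytic subunits Prkaca and Prkacb, the regulatory subunits Prkar1a, Prkar1b, Prkar2a and Prkar2b, the transmembrane cyclases Adcy1, Adcy3 and Adcy5, and the soluble cyclase Adcy10. They were chosen by name, and each symbol matched a single gene identifier. The mice were C57BL/6 males, 11 weeks old, and polyadenylated RNA came from their brain, liver and testis, with 1 strand-specific library per organ. The labels name no treatment and no allele, and the number of animals behind each library, or whether the organs came from the same animals, is not given in the sources used here.

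Adenylate cyclases turn ATP into the second messenger cyclic AMP (cAMP). Most span the membrane and are switched by G proteins under hormone and transmitter receptors, while the soluble cyclase is switched by bicarbonate and calcium. PKA is held inactive as a tetramer of a regulatory dimer and a pair of catalytic subunits, and cAMP binding to the regulatory subunits releases the kinase. Type II regulatory subunits are known for docking on A-kinase anchoring proteins. In brain this pathway is known for synaptic plasticity, in liver for the response to glucagon, and in sperm for motility and capacitation.

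Levels are FPKM, fragment counts scaled for transcript length and for library size, with the authors' lower and upper confidence bounds in brackets. The tables give no counts, so depth per gene is not stated, and the bounds stand for the estimation error within a library. With 1 library per organ the spread between animals is unknown, so no test was run and differences have no replicate check. Higher and lower are used as calls for differences of 2 or more on the log2(FPKM + 1) scale, which is 4-fold, with bounds that did not overlap. That scale understates the difference of low genes. Folds printed for single genes are plain FPKM ratios with no 1 added, so they can exceed the fold that the log2 difference stands for. These are bulk samples, so fewer cells of a type and less RNA per cell cannot be told apart.

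The organs carried their own markers. Neuronal markers (6 genes, among them Snap25 and Syp) summed to 1692 FPKM in brain, with 0.940 for liver and 6.79 for testis. Hepatocyte markers (6 genes, among them Alb) summed to 6.61, 38354 and 11.4 FPKM in the same order, of which the failed liver estimate of Serpina3k gave 4163. Spermatid markers (5 genes, among them Prm2 and Tnp1) summed to 27.3, 0.244 and 33938 FPKM. Leydig cell markers (5 genes) summed to 1.66, 25.5 and 441 FPKM in that order, of which the failed testis estimate of Insl3 gave 299. Sertoli cell markers (4 of 5 matched) summed to 0.492, 0.0239 and 448 FPKM, likewise, of which Defb19 gave 438. The part of cell makeup in the differences below was not tested.

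**Figure D1:**
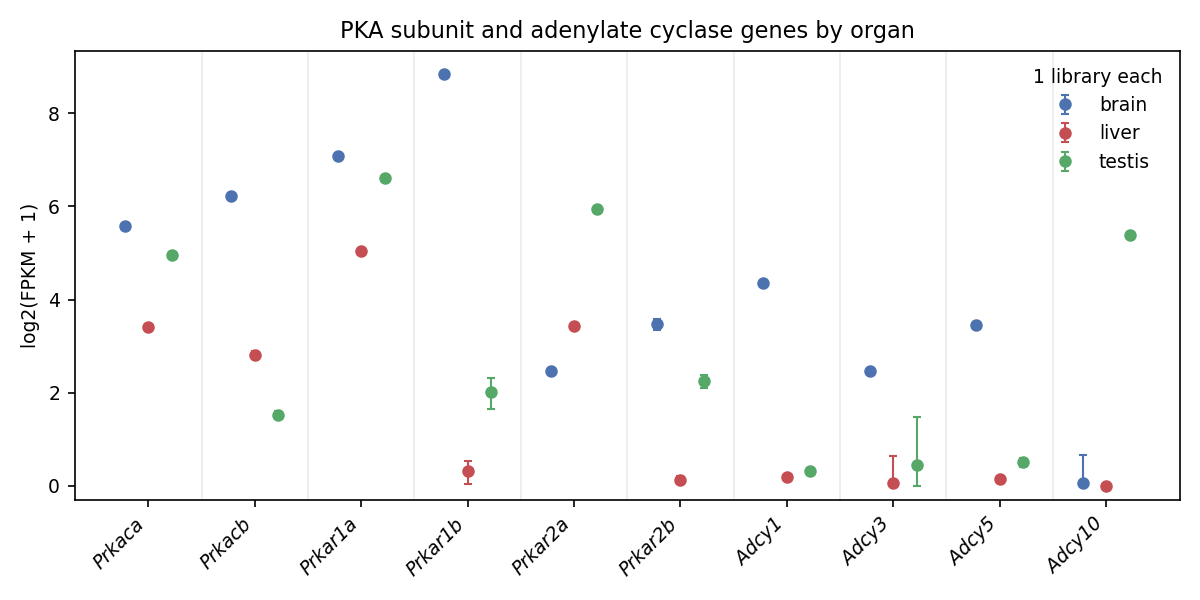
Level of each of the 10 genes in brain, liver and testis on the log2(FPKM + 1) scale; points are the deposited values of 1 library each and bars the authors' confidence bounds. Prkar1b stands highest of all in brain at 458 FPKM, while Adcy10 stands at 40.6 FPKM in testis and near 0 in the other organs.

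Levels of 7 of the 10 genes were called different between testis and brain. Testis was lower for 5 of the 10, against 7.19% of all genes and 10.4% of protein-coding genes called lower, and higher for 2, against 11.0% and 14.2% called higher. The 5 lower genes were Prkacb, Prkar1b, Adcy1, Adcy3 and Adcy5, and the 2 higher ones Prkar2a and Adcy10. Adcy3 was called here on a failed testis estimate. Between testis and liver 3 of the 10 were higher in testis (Prkar2a, Prkar2b and Adcy10), against 15.2% of all genes and 20.2% of protein-coding ones, and 0 were lower, against 3.82% and 5.96%. The counts of 2 higher against brain and 3 higher against liver are near the 14.2% and 20.2% of protein-coding genes. Between brain and liver 8 of the 10 were higher in brain, against 9.15% of all genes and 13.7% of protein-coding ones, and 0 were lower, against 2.79% and 4.55%. The exceptions were Prkar2a and Adcy10. The median log2 difference of the 10 genes between testis and brain was -1.62, where all genes and protein-coding genes had 0.00. Testis minus liver gave 1.55, against 0.02 over all genes and 0.23 over protein-coding ones. Brain minus liver gave 2.85, against 0.01 and 0.30.

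These counts depended on how libraries were scaled. When the FPKM sum of all genes was made equal between libraries, 4 of the 10 were higher in testis than in brain, against 25.6% of all genes, and 3 were lower, against 1.54%. In brain against liver 2 were then higher, against 2.53% of all genes, and 1 was lower, against 17.1%. That scaling moved log2 ratios of testis to brain by 2.79, and the protein-coding sum moved them by -0.72. The protein-coding sum was smaller in brain (345253 FPKM) than in testis (568312). The larger all-gene sum of brain thus lay outside genes matched as protein-coding. With the protein-coding sum 2 of the 10 were higher in testis than in brain (9.12% of all genes) and 5 lower (10.5%). With median-ratio scaling 1 gene, Adcy10, was higher in testis than in liver, which is near the 12.3% of all genes called there.

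The catalytic subunits Prkaca and Prkacb, which carry the kinase activity, differed in their pattern over the organs. Prkaca (ENSMUSG00000005469, mm9 chromosome 8, 86496877 to 86520344) was at 47.0 FPKM in brain (45 to 49.0), 9.58 in liver (9.01 to 10.2) and 29.9 in testis (28.5 to 31.2). Its 3 intervals did not overlap, but testis was within 4-fold of both other organs. The log2 difference was -0.64 for testis minus brain, which turned to 2.04 with the FPKM sum, and 1.54 for testis minus liver. Brain minus liver was 2.18, just over the limit, and became 1.45 with median-ratio scaling and -1.04 with the FPKM sum. Prkacb (ENSMUSG00000005034, mm9 chromosome 3, 146392543 to 146475924) was highest in brain, at 74.1 FPKM (70.7 to 77.6), with 6.01 in liver (5.59 to 6.43) and 1.87 in testis (1.71 to 2.03). Brain was thus 39.6-fold above testis and 12.3-fold above liver, and the log2 difference was -4.71 for testis minus brain. Testis was below liver with intervals apart, by -1.29 on the log2 scale, which missed the 4-fold limit. With the FPKM sum testis minus brain became -2.20, and the log2 difference between brain and liver went from 3.42 to 0.21.

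The mix of catalytic transcripts therefore differed by organ. Prkaca made up 38.8% of the summed catalytic FPKM in brain (121 FPKM in all), 61.4% in liver (15.6 FPKM) and 94.1% in testis (31.7 FPKM). In testis Prkacb made up the other 5.90%. The shares come from gene totals and do not depend on how a library was scaled.

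**Figure D2:**
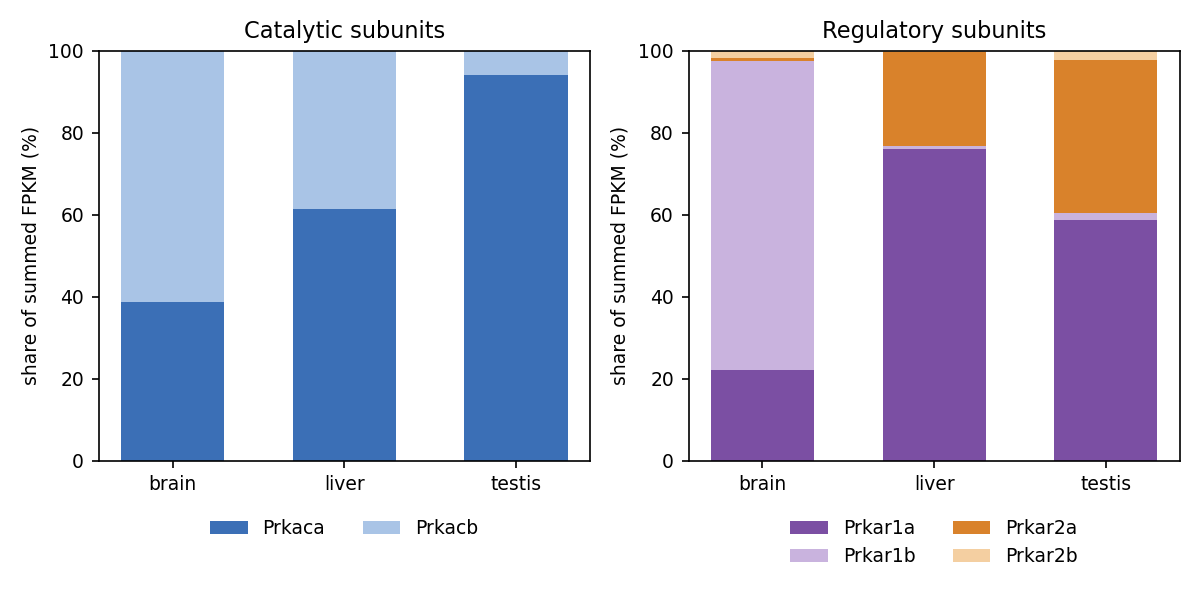
Share of each gene in the summed FPKM of the 2 catalytic subunit genes (left) and the 4 regulatory subunit genes (right) in each organ, in percent, 1 library each. Prkaca fills 94.1% of the catalytic bar in testis, Prkar1b 75.4% of the regulatory bar in brain and Prkar2a 37.2% of it in testis.

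Type I regulatory subunits bind the catalytic subunits mostly in the cytosol. Prkar1a (ENSMUSG00000020612, mm9 chromosome 11, 109510719 to 109530970), the widely used form, was at 135 FPKM in brain (130 to 141), 32.2 in liver (30.8 to 33.5) and 96.0 in testis (93.3 to 98.7). It was the only one of the 4 regulatory genes above 30 FPKM in all 3 libraries. The log2 difference was -0.49 for testis minus brain, 2.26 with the FPKM sum, and 1.55 for testis minus liver. Brain minus liver was 2.04, and became 1.28 with median-ratio scaling and -1.31 with the FPKM sum. Prkar1b (ENSMUSG00000025855, mm9 chromosome 5, 139493260 to 139625955), the form known from neurons, was at 458 FPKM in brain (441 to 476), 0.241 in liver (0.0296 to 0.452) and 3.08 in testis (2.15 to 4.0). In brain it stood at percentile 99.7 of protein-coding genes. Brain was 149-fold above testis by plain FPKM ratio. On the log2(FPKM + 1) scale testis minus brain was -6.82, and brain was 8.53 above liver.

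The exons of Prkar1b overlap on the same strand with Gm15672, annotated as a processed transcript, and 7.15% of the 76-base windows of the Prkar1b GENCODE M21 transcripts also occur in that gene. Gm15672 was at 3.56 FPKM in testis (3.16 to 3.96), 0.513 in brain and 0.0534 in liver. Its part in the Prkar1b level was not tested. No window of this length in the other 9 genes occurred, read in the sense direction, in a transcript of another gene. Exons of Adcy3 overlap exons of Cenpo on the opposite strand, which that search did not cover. The part of Cenpo in the Adcy3 level was not tested.

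The type II regulatory genes were highest in different organs. Prkar2a (ENSMUSG00000032601, mm9 chromosome 9, 108594474 to 108651843) was at 61.0 FPKM in testis (60.1 to 61.9), 9.73 in liver (9.48 to 9.99) and 4.55 in brain (4.28 to 4.81). Testis was 13.4-fold above brain and 6.27-fold above liver, with log2 differences of 3.48 and 2.53. Against liver this became 1.80 with median-ratio scaling and 1.99 with the FPKM sum, both under the limit. Prkar2b (ENSMUSG00000002997, mm9 chromosome 12, 32643341 to 32746161), which is known from brain and fat, had another order, with 10.1 FPKM in brain (9.11 to 11.1), 3.75 in testis (3.27 to 4.23) and 0.0955 in liver (0.0381 to 0.153). Its log2 difference was -1.22 for testis minus brain, not called, and 1.07 with the FPKM sum. Testis minus liver was 2.12, and was under the limit with median-ratio scaling (1.87) and with the protein-coding sum (1.98). Brain minus liver was 3.34, or 1.46 with the FPKM sum. Prkar2a was the only one of the 10 genes that was lowest in brain with all 3 intervals apart.

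Summed over the 4 regulatory genes, levels were 608 FPKM in brain, with 42.2 in liver and 164 in testis. Type I genes made up 97.6% of that sum in brain, 76.7% in liver and 60.5% in testis, and type II genes 2.41%, 23.3% and 39.5%. In brain Prkar1b alone was 75.4% and Prkar1a 22.2%, in liver Prkar1a was 76.2%, and in testis Prkar1a was 58.6% and Prkar2a 37.2%. The ratio of summed regulatory to summed catalytic FPKM was 5.02 in brain and 5.16 in testis, but 2.71 in liver. The ranges given by the bounds overlapped between brain and testis (4.61 to 5.47 and 4.78 to 5.59), and liver (2.44 to 3.02) lay below both.

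The transmembrane cyclases Adcy1, Adcy3 and Adcy5 were each highest in brain. Adcy1 (ENSMUSG00000020431, mm9 chromosome 11, 6963492 to 7078509), which calcium and calmodulin activate, was at 19.4 FPKM in brain (19.1 to 19.6), 0.138 in liver (0.121 to 0.155) and 0.246 in testis (0.214 to 0.279). Brain was 78.5-fold above testis and 140-fold above liver, with log2 differences of -4.03 for testis minus brain and 4.16 for brain minus liver. With the FPKM sum these became -2.0 and 2.06, at the limit of a call. Adcy5 (ENSMUSG00000022840, mm9 chromosome 16, 35154963 to 35305823), known from the striatum and heart, was at 9.93 FPKM in brain (9.45 to 10.4), 0.104 in liver (0.0742 to 0.135) and 0.427 in testis (0.327 to 0.527). Its log2 differences were -2.94 for testis minus brain, or -0.99 with the FPKM sum, and 3.31 for brain minus liver, or 1.42. Adcy3 (ENSMUSG00000020654, mm9 chromosome 12, 4133104 to 4213525), the cyclase of olfactory and neuronal cilia, was at 4.54 FPKM in brain (4.30 to 4.78). The liver value of 0.0489 (0 to 0.552) and the testis value of 0.360 (0 to 1.79) were both marked as failed estimates. The testis minus brain difference for Adcy3, -2.03, was close to the limit and was -1.88 with median-ratio scaling and -0.39 with the FPKM sum. Brain minus liver was 2.40, or 0.89 with the FPKM sum. In liver and testis all 3 genes were listed below 1 FPKM.

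Adcy10 had the opposite pattern. Adcy10 (ENSMUSG00000026567, mm9 chromosome 1, 167415314 to 167506905) encodes the soluble cyclase that sperm need to swim. It was at 40.6 FPKM in testis (38.5 to 42.8), percentile 88.2 of protein-coding genes there. In brain it was at 0.0507 FPKM (0 to 0.578), an estimate marked as resting on low data, and in liver it was listed at 0. The log2 differences were 5.31 for testis minus brain and 5.38 for testis minus liver, and both stayed over 5 with every scaling tried. The brain level of Adcy10 was 0.125% of its testis level. For the 5 spermatid markers the brain level was 0.0349% (Acrv1), 0.0654% (Prm1), 0.0653% (Tnp2), 0.0739% (Prm2) and 0.0940% (Tnp1) of the testis level, all below the percentage for Adcy10, whose bounds in brain reach 0. Their part in the Adcy10 brain value was not tested.

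Over all 10 adenylate cyclase genes, the 9 transmembrane ones summed to 63.8 FPKM in brain, with 3.41 for liver and 3.40 for testis. Adcy10 made up 92.3% of the cyclase FPKM in testis and 0.0794% in brain. In brain Adcy1 (30.3%), Adcy2 (28.3%) and Adcy5 (15.6%) held the largest shares. In liver Adcy6 (33.8%), Adcy9 (27.9%) and Adcy4 (24.0%) did. Of the 6 cyclases outside the 10 genes, 2 were called lower in testis than in brain, against 10.4% of protein-coding genes. Higher calls numbered 0, against 14.2%, and the median log2 difference was -1.14. The 2 lower ones were Adcy2 at 18.1 FPKM in brain against 0.522 in testis (-3.65), and Adcy8 at 5.50 against a listed 0 (-2.70).

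**Figure D3:**
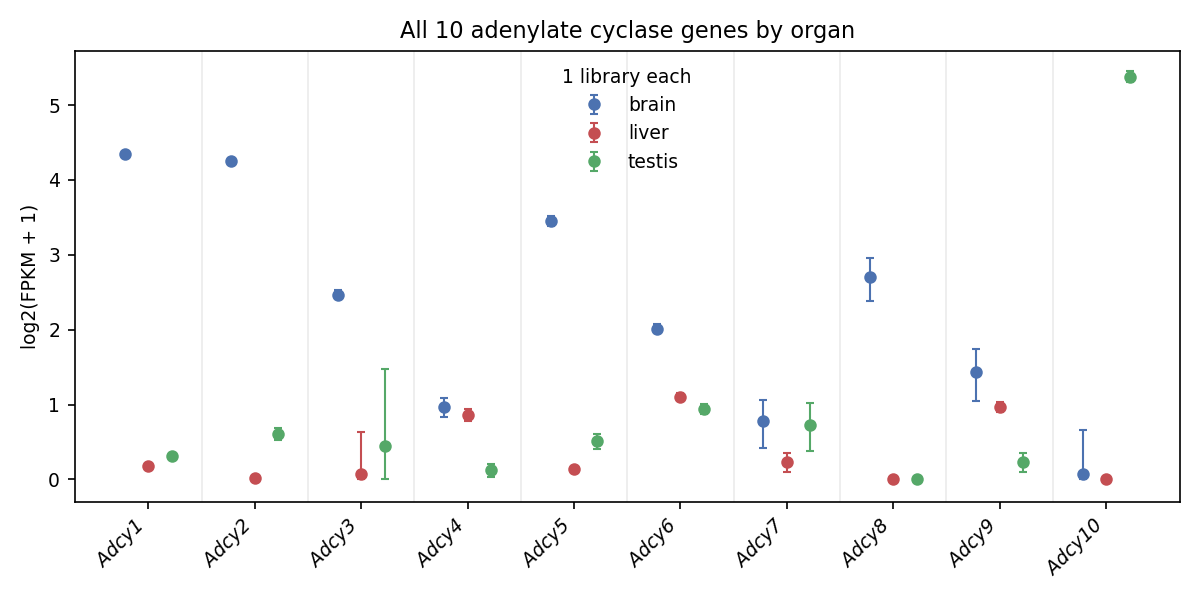
Level of all 10 adenylate cyclase genes in each organ on the log2(FPKM + 1) scale, with the authors' confidence bounds as bars, 1 library each. Adcy1, Adcy2, Adcy3, Adcy5 and Adcy8 stand out in brain (4.54 to 19.4 FPKM), and Adcy10 is the single cyclase listed above 1 FPKM in testis. The upper bounds of Adcy6 (1.02), Adcy7 (1.02) and the failed Adcy3 estimate (1.79) also pass 1 FPKM there.

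Sequence before the start site is shown for Adcy10 and Prkar2a, the genes higher in testis than in both other organs, for both starts of Prkaca, and for Adcy1 as a gene highest in brain. These were chosen after the levels were seen. RefSeq's promoter table on GRCm38.p6 held 24 start sites for the 10 genes. The coordinates of these windows are on that build and not on mm9. Prkaca has 2 starts there, and the downstream one opens a transcript with another first exon, which is known from sperm. The deposited values are per gene and their annotation is not given, so the testis level of Prkaca cannot be divided between its starts. Each line gives the 250 bases before a start site, 5′ to 3′ on the gene's strand, none of which overlaps an exon of GENCODE M21. Capitals mark the CREB half-site TGACG, the CCAAT box CCAAT and the GC box GGGCGG on either strand.
Adcy10, chr1:165484933-165485182, plus strand: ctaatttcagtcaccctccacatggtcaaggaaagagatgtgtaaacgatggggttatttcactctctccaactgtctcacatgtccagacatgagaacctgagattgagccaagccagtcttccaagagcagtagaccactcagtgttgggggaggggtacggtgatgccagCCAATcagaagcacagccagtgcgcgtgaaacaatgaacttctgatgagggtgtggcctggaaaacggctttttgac
Prkar2a, chr9:108691893-108692142, plus strand: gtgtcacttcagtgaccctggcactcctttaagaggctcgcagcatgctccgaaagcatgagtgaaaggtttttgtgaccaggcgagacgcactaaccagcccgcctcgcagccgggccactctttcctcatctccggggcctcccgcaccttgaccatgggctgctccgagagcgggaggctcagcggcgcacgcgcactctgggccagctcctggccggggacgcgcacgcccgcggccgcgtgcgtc
Prkaca upstream start, chr8:83972728-83972977, plus strand: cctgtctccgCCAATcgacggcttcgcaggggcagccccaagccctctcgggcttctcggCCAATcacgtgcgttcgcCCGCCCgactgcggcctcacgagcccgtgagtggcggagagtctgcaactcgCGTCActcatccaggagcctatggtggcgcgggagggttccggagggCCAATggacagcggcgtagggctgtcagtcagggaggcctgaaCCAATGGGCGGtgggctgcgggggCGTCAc
Prkaca downstream start, chr8:83976633-83976882, plus strand: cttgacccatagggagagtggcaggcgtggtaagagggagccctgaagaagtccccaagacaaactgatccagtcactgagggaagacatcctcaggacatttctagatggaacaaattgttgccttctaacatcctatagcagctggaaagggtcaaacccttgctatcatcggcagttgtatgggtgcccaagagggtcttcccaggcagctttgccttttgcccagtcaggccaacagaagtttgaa
Adcy1, chr11:7063183-7063432, plus strand: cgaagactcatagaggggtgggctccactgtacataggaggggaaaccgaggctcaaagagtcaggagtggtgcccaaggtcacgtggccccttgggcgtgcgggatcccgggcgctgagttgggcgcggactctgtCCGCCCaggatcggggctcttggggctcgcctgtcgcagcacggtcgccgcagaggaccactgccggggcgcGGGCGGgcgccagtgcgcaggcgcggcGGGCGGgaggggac

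The downstream Prkaca window held none of these motifs, while the upstream one held TGACG 2 times, CCAAT 4 times and GGGCGG 2 times, with none of these matches overlapping another. Adcy10 held 1 CCAAT and no other of the motifs, Adcy1 held GGGCGG 3 times, and Prkar2a held none. The GC share was 50.0% for Adcy10, 50.8% for the downstream Prkaca start, 66.8% for Prkar2a, 68.8% for the upstream Prkaca start and 71.2% for Adcy1. Over the 24 windows TGACG occurred in 6, CCAAT in 7 and GGGCGG in 12, while 17.8%, 33.8% and 32.7% of all 32851 promoter windows of this length held them. The full palindrome TGACGTCA, which contains TGACG, occurred in 1 of the 24, a Prkar1a start, and in 1.55% of all windows. Windows of 1 gene overlap in part and are not independent. A match is only a string of letters and says nothing of binding in these organs.

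The remaining genes of the pathway were described from 10 lists of 96 genes, of which 95 matched (Pde2a did not). Among the PKA inhibitors, small peptides that block free catalytic subunits, the forms differed by organ. Pkib was at 66.0 FPKM in testis against 2.73 in brain (4.16 on the log2 scale) and 0.0981 in liver (5.93), and Pkia at 25 FPKM in brain against 0.429 in testis (-4.19). Pkig was the highest of them in each organ, with 282 FPKM in testis against 91.5 in brain and 14.4 for liver. The liver estimate of Pkib was marked as low data, with bounds from 0 to 0.816. The summed FPKM of the 3 inhibitor genes was 349 for testis (11.0 times the catalytic sum), 119 for brain (0.984 times) and 14.7 for liver (0.943 times). Of the 4 genes of this list, which also holds Prkx, 1 was higher and 1 lower in testis than in brain, and 2 were higher than in liver. For this list and those that follow, the shares of protein-coding genes to read the counts against are 14.2% higher and 10.4% lower for testis against brain, and 20.2% higher and 5.96% lower for testis against liver.

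A-kinase anchoring proteins tie PKA to places in the cell. Of 15, testis was higher than brain for 5 and lower for 2, with a median log2 difference of -0.30, and higher than liver for 5 and lower for 0 (median 1.59). The 2 lower ones are near the share of 10.4% among protein-coding genes. The 5 genes higher against brain were Akap3, Akap4, Akap10, Akap12 and Akap14, and the same 5 were higher against liver. Akap1 was listed at 183 FPKM in testis, with 6.10 for brain and 14.1 for liver. Its testis estimate failed, and its bounds there, from 0 to 354, overlapped those of both other organs, so it was not called. The sperm tail anchor Akap4 reached 567 FPKM in testis, with 0.342 for brain and 0.00228 for liver, and Akap12 was at 354, 6.66 and 0.804. Akap5 and Akap6, both known from neurons or muscle, were the 2 lower in testis than in brain (-2.60 and -3.06). All 4 sperm proteins with an RII-like dimerization domain, which bind anchoring proteins as type II subunits do, were higher in testis against both organs. Spa17 stood at 5045 FPKM in testis, with 19.2 for brain and 2.60 for liver, and Ropn1l at 2692 against 3.28 and 23.6.

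**Figure D4:**
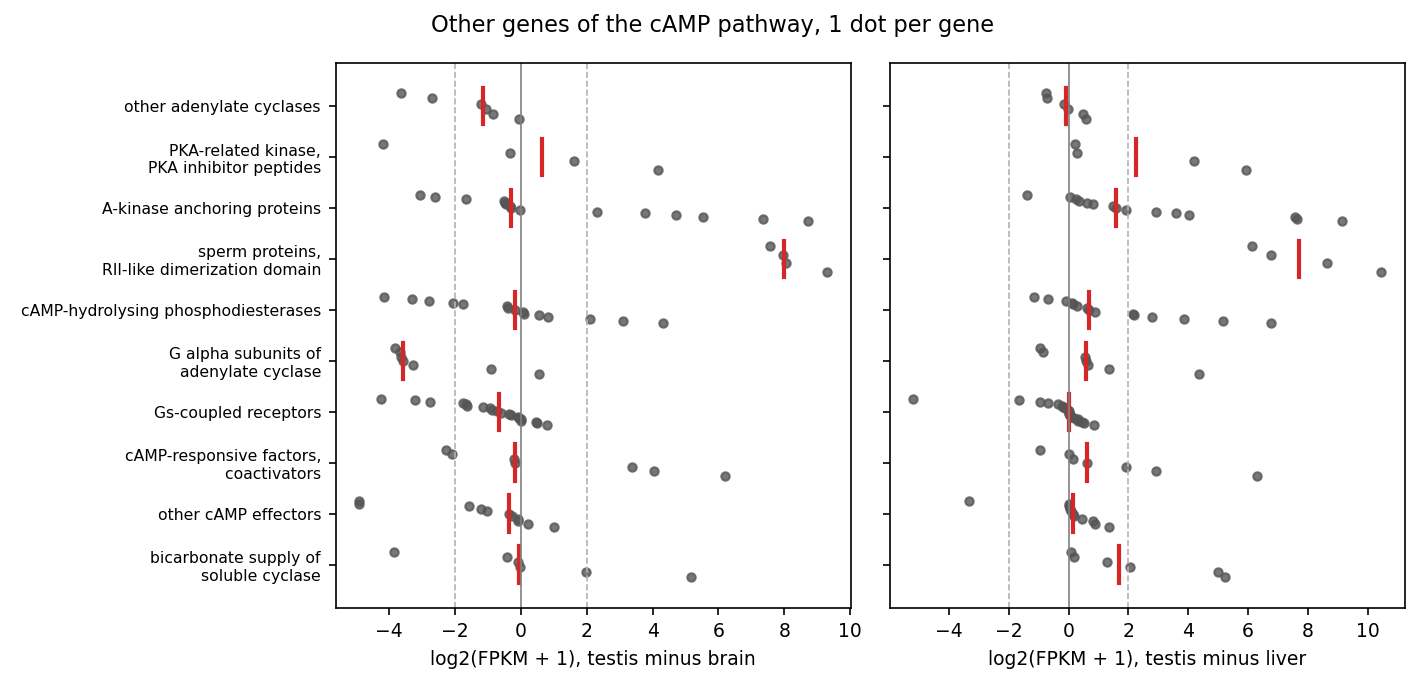
Difference on the log2(FPKM + 1) scale between testis and brain (left) and between testis and liver (right) for the 95 other pathway genes, 1 dot per gene, grouped by list; red bars are list medians and dashed lines mark the 4-fold limit. The sperm proteins with an RII-like domain lie farthest to the right, with medians of 8.0 and 7.71.

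Upstream of the cyclases, 4 of 7 G protein alpha subunits were lower in testis than in brain, against 10.4% of protein-coding genes, and 0 higher (median -3.56). Gnao1, the main G protein of neurons, reached 263 FPKM in brain, with 20.1 for testis and 0.0230 for liver, and Gnai1, which inhibits cyclases, at 41.1, 2.29 and 0.298. Gnas, the stimulatory subunit, was listed at 839 FPKM in brain, at 107 for liver and at 58.3 for testis, with no estimate marked OK, and it was not called because its bounds, all from 0 up, overlapped. Of 20 Gs-coupled receptors 3 were lower in testis than in brain (Adrb1, Adcyap1r1 and Crhr1) and 0 higher, with a median of -0.66. A count of 3 in 20 is near the 10.4% of protein-coding genes called lower. Crhr1, a stress hormone receptor, was at 20.3 FPKM in brain and 0.130 in testis. The glucagon receptor Gcgr was at 36.1 FPKM in liver, with 0.00756 for brain and 0.0147 for testis, the last marked as low data. No receptor estimate of the list reached 1 FPKM in testis, where that of Adcyap1r1, marked as low data, had bounds from 0 to 1.59.

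Phosphodiesterases break down cAMP. Of 15 matched genes 2 were higher in testis than in brain, near the 14.2% of protein-coding genes called higher, and 4 lower, against 10.4% (median -0.16). Against liver 5 were higher, against 20.2% of protein-coding genes, and 0 lower (median 0.68). Pde1a had 206 FPKM in testis against 196 in brain, with overlapping intervals, and at 0.887 in liver. Pde8a was at 41.3 FPKM in testis, with 3.90 for brain and 5.11 for liver. Pde1c was listed at 35.4 FPKM in testis, a failed estimate that lay outside its own bounds (0 to 29.6).

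Among cAMP-responsive transcription factors and coactivators, 2 of 7 were higher and 2 lower in testis than in brain (median -0.18), against 14.2% and 10.4% of protein-coding genes. Atf1 was at 296 FPKM in testis against 17.2 in brain, and Fhl5, a coactivator of CREM in spermatids, at 77.2 against 0.0706. The brain estimate of Fhl5 was marked as low data. Creb1 was lower, at 2.97 against 17.9 FPKM. Crem was listed at 359 FPKM in testis, but its estimate failed in all 3 libraries and lay above its own upper bound in each. Of 11 other cAMP effectors 2 were lower in testis than in brain, against 10.4% of protein-coding genes, and 0 higher, against 14.2% (median -0.36). They were Rapgef4, a cAMP-driven exchange factor, at 85.4 FPKM in brain and 1.87 in testis, and the channel gene Hcn2 at 32.6 and 0.129. Of 6 genes of bicarbonate supply 1 was higher, the sperm exchanger Slc9c1, and 1 lower, the carbonic anhydrase Car4 at 34.9 FPKM in brain against 1.5 in testis (list median -0.05). Car2, another carbonic anhydrase, was at 93.1 FPKM in brain and 87.9 in testis.

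The pathway gene closest in level to each of the 10 genes was sought by Euclidean distance on log2(FPKM + 1) over the 3 libraries, among 95 genes. For Adcy10 it was Slc9c1 (distance 0.14), at 36.7 FPKM in testis, 0.0434 in brain and listed at 0 in liver. The closest to Adcy5 was Akap6 (0.20), to Adcy1 Crhr1 (0.24), to Prkaca Akap8l (0.40) and to Adcy3 Akap5 (0.42). Prkar1b (Gnao1, 2.52), Prkacb (Rapgef4, 2.04), Prkar1a (Pkig, 1.98), Prkar2b (Akap2, 1.11) and Prkar2a (Pde8a, 1.0) had no gene this close. With 3 libraries such closeness is a description of levels only.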

How the data were processed

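Each organ gave 1 strand-specific library, read single-end over 76 cycles in 3 lanes, with about 114000000 reads per sample on average, per the labels' protocols. Cufflinks 2.0.0, TopHat 1.4.0 and Bowtie 0.12.5 are listed in the submitters' processing notes, beside the mm9 build. The sources used here do not give the gene annotation or filters. Per the file headers, the authors deposited FPKM per gene, a status for each estimate and 2 confidence bounds, whose level is not named. Values were used as deposited, without scaling. Adcy3 in liver and testis is marked as failed and Adcy10 in brain as low data.

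The 36809 identifiers in all 3 tables were used, with FPKM and bounds summed for 12 identifiers at several loci. Symbols came by identifier from GENCODE M21 for 31837 of them. Starts in the tables had 1 added, after which 37 of 37 mitochondrial genes had the reference coordinates. Differences were taken on log2(FPKM + 1), and a gene was called at 4-fold or more with bounds apart, whatever the status of its estimates. No statistical test fits 1 library per organ. The 10 genes, the lists and the marker genes were chosen with earlier results of these data known. Of the 65 marker entries 63 matched. All 10 genes are named. From each other list the 2 highest genes and the 2 with the largest difference were named, and others were named after their values were seen. Sums are plain FPKM sums. Bounds of ratios set the lower bounds of the numerator against the upper bounds of the other genes, and the reverse. The settings tried instead were 0.1 and 0.01 as the pseudocount, scaling to the FPKM sum, the protein-coding sum or the median ratio, limits of 2-fold and 8-fold, no bounds, estimates marked OK only and a minimum of 1 FPKM. Python 3.11.15 and pandas 2.3.3 were used.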

Additional observations from a re-analysis of the deposited data

How the results depend on the processing

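No paired analysis was possible because each organ has 1 library. Another pseudocount or scaling gave 150 values for single genes, of which 129 kept direction and call, 5 reversed, 13 lost the call and 3 gained it. The other settings change the call rule or the genes tested and leave each difference as it is: of 145 such calls 133 were kept, 7 were lost and 5 gained. The reversals all came from scaling to the FPKM sum: testis minus brain became 2.04 for Prkaca, 2.26 for Prkar1a and 1.07 for Prkar2b, and brain minus liver became -1.04 for Prkaca and -1.31 for Prkar1a. Log2 ratios of testis to brain shifted by 2.79 with the FPKM sum, 0.00 with the median ratio and -0.72 with the protein-coding sum. Ratios of testis to liver shifted by -0.62, -0.77 and 0.11, and of brain to liver by -3.40, -0.78 and 0.83, in that order. With the FPKM sum 25.6% of all genes were higher and 1.54% lower in testis than in brain. In brain against liver 2.53% were then higher and 17.1% lower. Genes of the 10 higher in testis than in brain numbered 4 with the FPKM sum. With estimates marked OK only Adcy10 was left out and 1 was higher, near the 11.1% of all genes. Those lower in testis than in brain numbered 3 with the FPKM sum and 3 at 8-fold (3.73% of all genes). With estimates marked OK only Adcy3 was left out and 4 were lower (7.14%). Genes of the 10 higher in testis than in liver numbered 1 with the median ratio (12.3% of all genes), 6 at 2-fold (24.5%) and 1 at 8-fold (9.45%), so 1 of 10 is near the share of all genes. They numbered 4 with either smaller pseudocount, where Prkar1b had 3.22 and 3.62 and 23.8% and 28.4% of all genes were higher. With the FPKM sum and the protein-coding sum they numbered 2, near the 15.2% and 14.9% of all genes. Those lower numbered 1 at 2-fold (6.97%). Genes of the 10 higher in brain than in liver numbered 2 with the FPKM sum and 5 at 8-fold (4.93% of all genes). They numbered 7, without Adcy3, with estimates marked OK only (8.90%). Those lower numbered 1 with the FPKM sum. Apart from the limits of 2-fold and 8-fold and the estimates left out, the cause was not tested. With bounds set against each other, the Prkaca share ran from 36.7% to 41.0% in brain, 58.4% to 64.5% in liver and 93.4% to 94.8% in testis. The type II share ran from 2.13% to 2.71%, 21.9% to 24.7% and 38.1% to 40.9%, and the ratio of regulatory to catalytic FPKM from 4.61 to 5.47, 2.44 to 3.02 and 4.78 to 5.59, in the same order. Depth per gene is unknown.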
